A study of Mus musculus with 6 samples.

Results

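The liver secretes most of the proteins that clot blood and most of the complement proteins that mark and lyse microbes. The genes described here are 35 such genes of the mouse, 19 of coagulation and fibrinolysis and 16 of complement, chosen by name. Each was read from the probe set that the array annotation assigns to that gene alone, and from the brightest probe set where a gene has more than 1. In this way 32 of the 35 were measured, among 19938 genes in all. Klkb1 (plasma prekallikrein) lay only in a probe set with several gene names, and C3 (the central complement protein) and Cpb2 (a carboxypeptidase that slows fibrinolysis) have no probe set under their own name in the annotation used, so these 3 were not analysed here.

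The samples are whole livers of 6 female mice, 1 array each. The 3 Lkb1KOlivad mice (B253, B304 and B305) carry Lkb1 fl/fl with TTR-CreTam, a tamoxifen-inducible Cre recombinase driven by the hepatocyte-specific transthyretin promoter, on an FVB/N background, and the 3 control mice (B256, B267 and B302) are Lkb1 fl/fl littermates without Cre. Lkb1, encoded by Stk11, is a kinase that activates Ampk. Both groups received tamoxifen, given in 2 doses at 8 to 12 weeks of age. The study's methods place most experiments 15 days later and in male mice, whereas the array mice are female. The fasted state there meant 18 h without food in most cases. The labels give genotype and sex and neither the nutritional state nor the time, and the paper describes the array livers as fasted. Only hepatocytes lose Lkb1 in this model, so every other liver cell keeps it. All values are log2 RMA signals, in which 1 unit is a 2-fold difference. A change is the mean of the Lkb1KOlivad mice minus that of the controls on this scale, and levels of different genes are not compared, since probe sets differ in brightness.

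Clotting runs as a cascade of proteases. Tissue factor with factor VII, or the contact factors XII and XI, lead to factor X, which with factor V turns prothrombin into thrombin, and thrombin turns fibrinogen into fibrin. Protein C and its cofactor protein S hold this cascade back, and plasmin, made from plasminogen, dissolves the clot. Complement starts from antibodies, from sugars bound by mannose-binding lectins, or from the alternative pathway. All routes meet at C3 and can end in the membrane attack complex of C5 to C9. Hepatocytes make most of these proteins, under liver transcription factors of the HNF1, HNF4, C/EBP, FOXA and Onecut families, and several of them rise in inflammation through interleukin-6 and Stat3. Factor VIII comes mainly from sinusoidal endothelial cells and properdin (Cfp) from myeloid cells.

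The targeted gene differed as the labels say. Stk11 had signals of 6.52 (B253), 6.42 (B304) and 6.48 (B305) in the Lkb1KOlivad livers against 8.24 (B256), 8.13 (B267) and 7.96 (B302) in the controls, and the groups lay apart. The change was -1.64 (adjusted p = 0.00705 from limma), and this was the only gene of the 19938 with an adjusted p under 0.05. The array medians lay between 5.03 and 5.08. Control B302 had the lowest correlations over all genes with the other arrays (r between 0.982 and 0.986, against 0.985 to 0.990 among the other pairs), and the counts over all members and over the coagulation groups below are given with and without it. The hepatocyte markers were present at signals of 9.43 to 12.9.

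Before the values, 5 promoters are shown. The first 3 belong to the fibrinogen chains, which lie next to each other on chromosome 3 and whose signals moved together over the mice. The other two belong to Mbl2 and C4bp, the members with the largest positive changes. Sequences are from RefSeq (GRCm38.p6), 5′ to 3′ along the gene's strand, and run from 250 bases before the annotated start to 50 bases after it. Capitals mark matches to the searched motifs.

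Fga, chr3:83025903-83026202, plus strand: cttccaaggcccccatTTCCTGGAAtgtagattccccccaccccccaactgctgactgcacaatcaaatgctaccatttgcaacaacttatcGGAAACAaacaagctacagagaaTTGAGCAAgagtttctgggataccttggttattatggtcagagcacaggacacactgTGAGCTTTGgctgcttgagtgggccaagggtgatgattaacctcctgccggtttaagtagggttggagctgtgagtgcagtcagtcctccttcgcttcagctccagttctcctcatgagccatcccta
Fgb, chr3:83049814-83050113, minus strand: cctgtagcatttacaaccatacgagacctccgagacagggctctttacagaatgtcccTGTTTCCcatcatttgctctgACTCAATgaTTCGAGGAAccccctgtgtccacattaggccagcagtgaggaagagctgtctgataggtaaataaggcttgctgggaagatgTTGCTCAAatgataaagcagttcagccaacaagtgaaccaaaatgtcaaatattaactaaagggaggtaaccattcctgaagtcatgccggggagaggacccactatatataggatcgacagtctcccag
Fgg, chr3:83007474-83007773, plus strand: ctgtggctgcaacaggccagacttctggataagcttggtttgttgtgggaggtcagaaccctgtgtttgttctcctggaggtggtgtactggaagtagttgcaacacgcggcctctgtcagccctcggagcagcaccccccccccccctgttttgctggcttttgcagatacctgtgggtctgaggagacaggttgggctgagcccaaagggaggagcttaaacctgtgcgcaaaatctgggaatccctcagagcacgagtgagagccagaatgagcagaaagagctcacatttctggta
Mbl2, chr19:30232678-30232977, plus strand: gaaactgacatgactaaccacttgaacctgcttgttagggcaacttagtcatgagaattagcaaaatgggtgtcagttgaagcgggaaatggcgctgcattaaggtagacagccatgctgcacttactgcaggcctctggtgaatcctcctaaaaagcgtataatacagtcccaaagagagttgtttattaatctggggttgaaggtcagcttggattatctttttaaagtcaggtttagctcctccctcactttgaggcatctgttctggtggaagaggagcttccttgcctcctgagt
C4bp, chr1:130661569-130661868, minus strand: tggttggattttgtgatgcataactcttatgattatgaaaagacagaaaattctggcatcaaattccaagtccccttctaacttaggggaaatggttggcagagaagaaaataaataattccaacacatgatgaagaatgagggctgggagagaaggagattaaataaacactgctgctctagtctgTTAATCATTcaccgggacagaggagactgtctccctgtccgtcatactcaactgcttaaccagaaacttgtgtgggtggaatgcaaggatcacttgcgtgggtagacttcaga

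The Fga window held 4 matches, which begin at position -234 for STAT, -158 for FOXA, -135 for C/EBP and -78 for HNF4, counted from the start. The Fgb window also held 4, at -192 for FOXA, -171 for Onecut, -162 for STAT and -80 for C/EBP. C4bp held a match to the HNF1 motif at -63, and the windows of Fgg and Mbl2 held no match to any of the 6 motifs. No matches overlap in these windows.

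Promoter windows were found for 28 of the 35 genes, 29 windows in all, and none was found for Cfi, Kng1, Masp1, Plg, Cfb, C2 and Proc. The motifs were searched on both strands and set against 32851 windows of the same length from all genes. HNF1 (TTAATNATT) was in 4 of the 29 windows (C4bp, F13b, F8 and Hc) and in 1.47% of all windows. C/EBP (TTGCNNAA) was in 8 of the 29 (C3, C9, Cpb2, F11, F9, Fga, Fgb and Klkb1) and in 10.8% of all. FOXA (TGTTTNC) was in 10 of the 29, among them C8a and F10, and in 20.5% of all. HNF4 (CAAAGNNCA) was in 4, those of C8g, F7, F9 and Fga, and in 6.36% of all. Onecut (ATTGANT) and STAT (TTCNNNGAA) were in 6 each, and in 8.32% and 8.3% of all. F9 (the gene of factor IX), Fga and Fgb each matched 4 of the 6 motifs. A match describes letters and is not a bound site.

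No coagulation or complement gene passed the test between Lkb1KOlivad and control livers. The 95% interval of the change lay inside 2-fold either way for 32 of 32 members (97.9% of all genes) and inside 1.5-fold for 25 of 32 (82.5% of all genes). The changes ran from -0.23 for C6, a terminal complement protein, to 0.38 for C4bp, which restrains the classical and lectin routes. The intervals reached a median of 0.34 to either side, against 0.32 over all genes. Over all members, the lowest bound was -0.61 (C9) and the highest 0.96 (C4bp).

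With limma and Benjamini-Hochberg adjustment over all genes, 0 of the 32 members had an adjusted p under 0.05, where 0.00502% of all genes did, and the smallest adjusted p of a member was 0.9997. Without adjustment, 1 member was higher at a p under 0.05 (Mbl2; 1.52% of all genes) and 0 were lower (1.51% of all genes), and without control B302 it was 0 in both directions (1.51% and 2.23% of all genes). The methods' t-test gave 0 of either kind. In 0 members did all 3 Lkb1KOlivad values lie above all 3 control values (3.46% of all genes) and in 0 did all lie below (3.7% of all genes). With 1 mouse left out, groups lie apart more often. Without control B302, 5 members lay below (F8, F13b, Masp1, Cfp and C6), as did 8.55% of all genes. None lay above, where 9.51% of all genes did. Without B305, 5 lay above (Mbl2, Masp2, Hc, C8a and C8b), as did 7.95% of all genes. None lay below, where 7.3% of all genes did. After quantile normalization 2 lay above (Fgg and Mbl2; 3.93% of all genes) and 1 below (F2; 4.08% of all genes). The change was above 0 for 23 members and below 0 for 9, where 51.6% of all genes were above 0. Without control B302 these counts were 15 and 17, and without B253 they were 14 and 18. The median change of the members was 0.07, against 0.0049 over all genes. The 17 measured coagulation genes had a median of 0.02, with 12 above 0. The 15 complement genes had a median of 0.10, with 11 above 0. By role these were 4 of 6 lectin and classical, 2 of 3 C3 and alternative, and 5 of 6 terminal genes. Without B253 they were 3 of 6, 0 of 3 and 3 of 6, each with a median below 0. Without control B302 they were 4 of 6, 1 of 3 and 5 of 6. By role, the coagulation genes above 0 were 6 of 7 vitamin K-dependent, 0 of 2 cofactors, 1 of 3 contact and 5 of 5 fibrin genes. Without control B302 they were 3 of 7, 0 of 2, 0 of 3 and 2 of 5. The median over all members was -0.047 without mouse B253 and -0.0022 without control B302, so its sign rested on each of these mice.

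**Figure D1:**
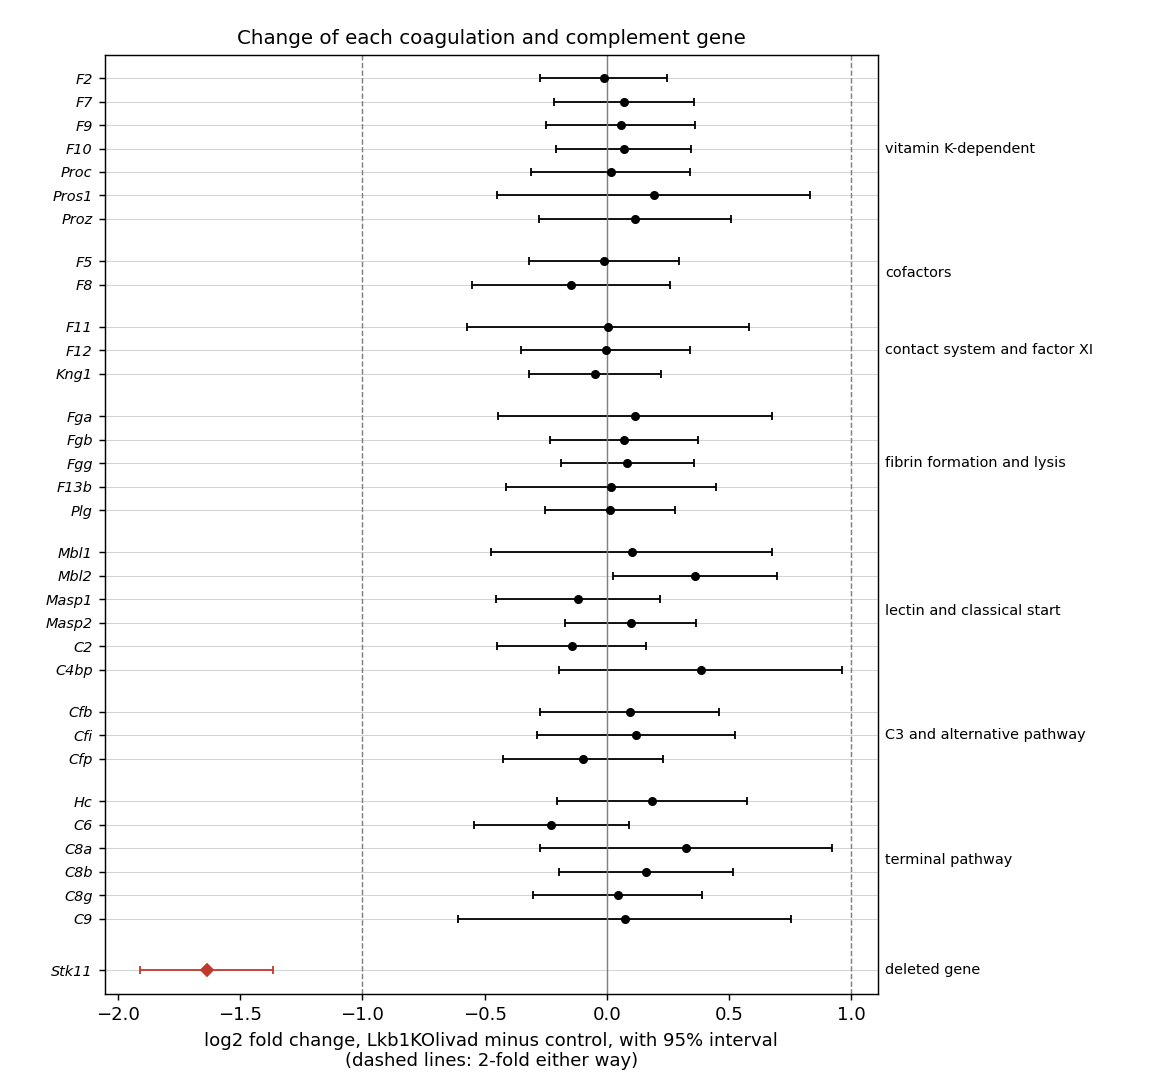
Change of each of the 32 measured genes (x axis, log2 fold change, Lkb1KOlivad minus control; points, 3 mice against 3; bars, 95% interval from limma), grouped by role, with the deleted gene Stk11 in red. Every bar of a member lies between the dashed lines at 2-fold either way, and only that of Mbl2 leaves out 0, while Stk11 lies at -1.64.

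Mice of the same genotype differed among themselves. Mouse B253, of the Lkb1KOlivad group, had the highest signal of the 6 mice in 17 of the 32 members, where it was highest in 14.9% of all genes, and the lowest in 0. Control B302 was lowest in 16 of the 32 (20.7% of all genes) and highest in 0. Control B267 was highest in 10 (14.8% of all genes) and control B256 in 5 (16.8%), so B304 and B305 were highest in none. Relative to the control mean, the median over the members was 0.21 in B253, 0.02 in B304 and -0.08 in B305, against 0.01 in B256, 0.11 in B267 and -0.13 in B302. The Lkb1KOlivad mice thus lay on both sides of the control mean, and so did the controls.

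By number, 3 mice belong to the two-hundreds (B253 against B256 and B267) and 3 to the three-hundreds (B304 and B305 against B302), a grouping that the labels do not explain. The median change of the members was 0.18 within the first series and 0.09 within the second. With the series as a block the median was 0.12 and 0 members passed the adjusted test. The first difference rests on 1 Lkb1KOlivad mouse and the second on 1 control.

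**Figure D2:**
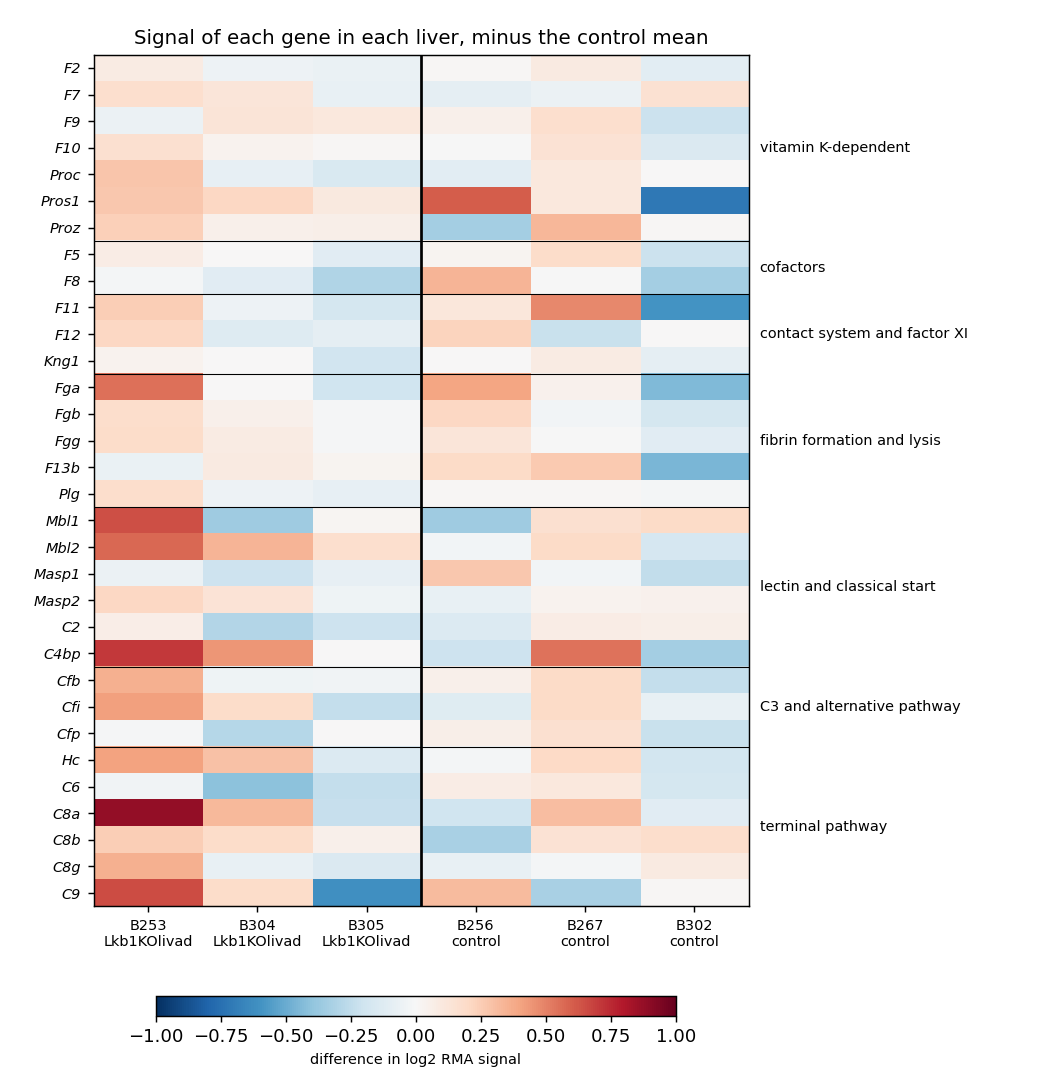
Signal of each gene (rows, by role) in each liver (columns) as the difference from the mean of the 3 controls, in log2 RMA units from blue (lower) to red (higher); the thick line parts the genotypes. The column of B253 is the reddest and that of control B302 the bluest, with medians of 0.21 and -0.13, while those of B304 and B305 have medians of 0.02 and -0.08.

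Among the vitamin K-dependent proteins, 7 of 7 were measured, 6 had a change above 0, and their median was 0.07. Without control B302, 3 of the 7 were above 0. Pros1, the gene of protein S, had the largest. Its signals were 8.59 (B253), 8.53 (B304) and 8.42 (B305) in the Lkb1KOlivad livers and 8.92 (B256), 8.43 (B267) and 7.61 (B302) in the controls. The control mice lay both above and below all Lkb1KOlivad mice, and B302 was the lowest by far. The change was 0.19 (95% interval -0.45 to 0.83), and it was -0.16 without control B302.

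The proteases that drive clotting were known more narrowly. F2 (prothrombin), with signals of 11.1 to 11.3 in both groups, had a change of -0.01 (95% interval -0.27 to 0.25). F7, the protease that tissue factor engages, lay at 0.07 (-0.22 to 0.36), F9 at 0.06 (-0.25 to 0.36) and F10, the protease both routes lead to, at 0.07 (-0.21 to 0.35). Proc, which encodes the anticoagulant protein C, had a change of 0.02 (-0.31 to 0.34) and Proz, the cofactor of an inhibitor of factor X, 0.12 (-0.28 to 0.51). F7, F10 and Proz are neighbours in the genome. In F7 the highest mouse was B253, in F10 also B253, and in Proz control B267.

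The cofactors are F5 and F8, which speed the proteases of the cascade. F5 had a change of -0.01 (95% interval -0.32 to 0.29). F8 had signals of 7.80 (B253), 7.71 (B304) and 7.51 (B305) against 8.16 (B256), 7.82 (B267) and 7.48 (B302). The controls spanned all Lkb1KOlivad mice. The change was -0.15 (95% interval -0.55 to 0.26), and it was -0.31 without B302, when the groups lay apart, and 0.02 without B256. Of the 9 endothelial markers, which mark the main source of F8, 7 were below 0 (median -0.18), and the mean signal of the list was 6.66 to 6.81 in the Lkb1KOlivad livers and 6.75 to 7.14 in the controls. Their part in the F8 value was not tested. In whole liver, fewer cells of a type and less RNA per cell cannot be told apart.

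Of the contact system and factor XI, 3 of 4 genes were measured. F11, whose protease activates factor IX, varied more among the controls than among the Lkb1KOlivad mice, with 8.66 (B256), 9.03 (B267) and 7.95 (B302) on either side of 8.79 (B253), 8.50 (B304) and 8.37 (B305). Its change was 0.0058 (95% interval -0.57 to 0.58). F12, which starts the contact route, had a change of -0.0038 (-0.35 to 0.34).

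Kng1, the gene of high molecular weight kininogen, from which bradykinin is cut, had the largest change of this group. Its signals were 11.97 (B253), 11.94 (B304) and 11.74 (B305) against 11.94 (B256), 12.01 (B267) and 11.85 (B302). All 6 livers lay close together, with B305 lowest. The change was -0.05 (95% interval -0.32 to 0.22).

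In fibrin formation and lysis, 5 of 6 genes were measured and all 5 had a change above 0, with a median of 0.07. Without control B302, 2 of the 5 were above 0, and without B253, 3. Fga, the fibrinogen alpha chain (probe set 10492748), had signals of 11.15 (B253), 10.61 (B304) and 10.40 (B305) against 10.998 (B256), 10.647 (B267) and 10.16 (B302). The groups overlapped over most of their range. The change was 0.12 (95% interval -0.44 to 0.68), and with the mouse series as a block it was 0.33, with an unadjusted p under 0.05 and adjusted p = 0.964 from limma.

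The beta and gamma chains spread less. Fgb had signals of 12.37 (B253), 12.24 (B304) and 12.18 (B305) against 12.39 (B256), 12.16 (B267) and 12.02 (B302), a change of 0.07 (95% interval -0.23 to 0.37). Fgg had 12.38 (B253), 12.29 (B304) and 12.19 (B305) against 12.32 (B256), 12.20 (B267) and 12.09 (B302), a change of 0.08 (-0.19 to 0.36). In all 3 chains B253 and control B256, 1 mouse of each genotype, were the highest pair and control B302 was the lowest. The Fga and Fgb promoters shown above share matches to the C/EBP, FOXA and STAT motifs, and the Fgg window held none.

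F13b, the carrier subunit of the factor that crosslinks fibrin, had a change of 0.02 (95% interval -0.41 to 0.45). Without control B302, which was lowest at 9.40, it was -0.21. Plg, the gene of plasminogen, varied by only 0.015 (SD, n = 3) among the controls and by 0.14 (SD, n = 3) among the Lkb1KOlivad mice, with a change of 0.01 (-0.25 to 0.28).

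**Figure D3:**
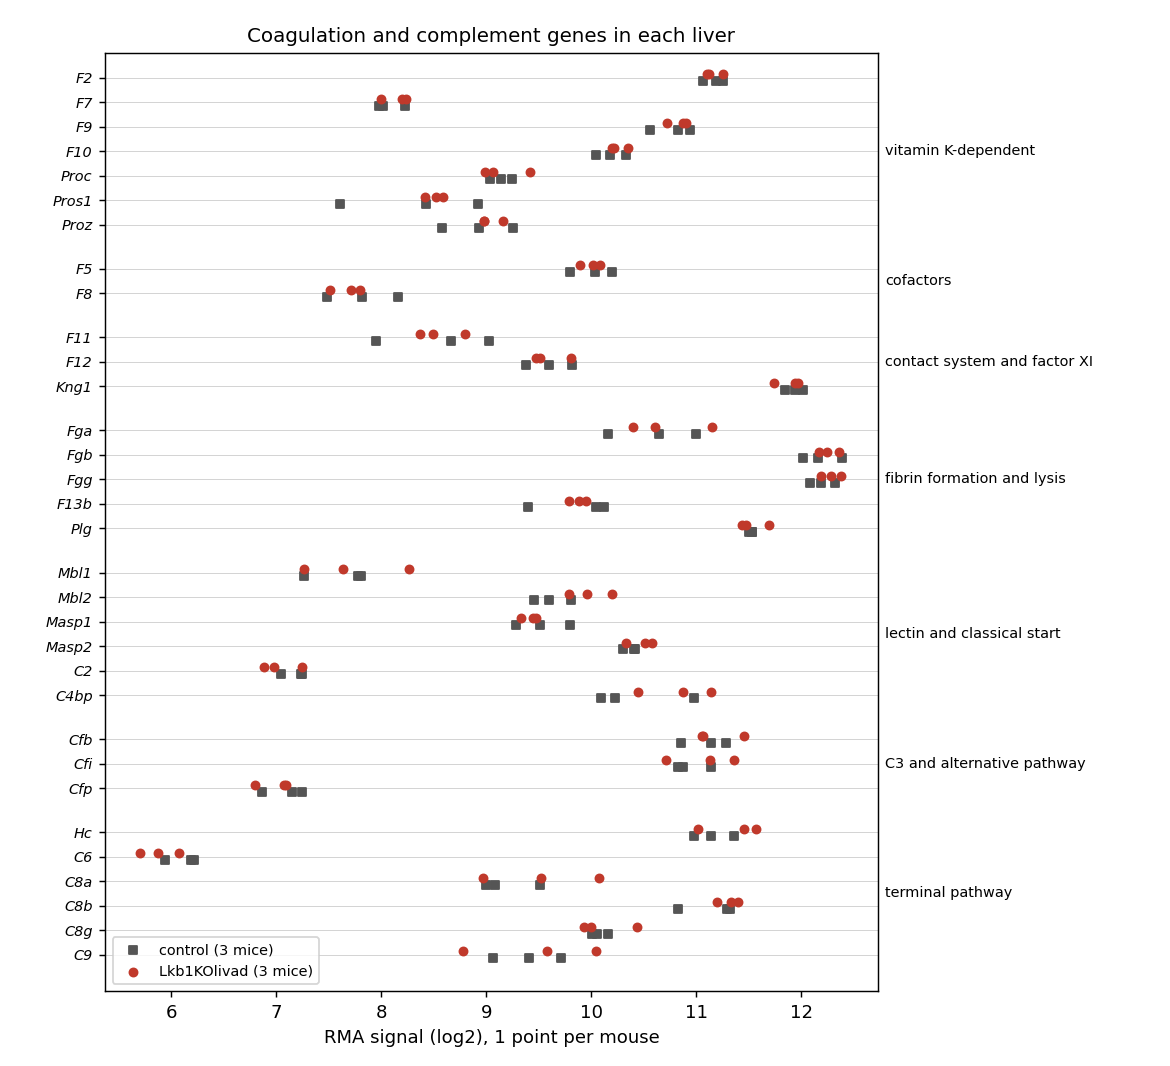
Log2 RMA signal (x axis) of the 32 measured genes in each of the 6 livers, 1 point per mouse, with control mice as grey squares and Lkb1KOlivad mice as red circles. In every gene the red and grey points overlap in range, and the horizontal position compares mice within a gene, not genes with each other.

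At the start of complement 6 of 6 genes were measured and 4 had a change above 0, with a median of 0.10. Without B253, 3 of the 6 were above 0 and the median was -0.049. Mbl2, one of the mannose-binding lectins of the mouse (probe set 10462473), had signals of 10.20 (B253), 9.96 (B304) and 9.79 (B305) in the Lkb1KOlivad livers and 9.60 (B256), 9.81 (B267) and 9.46 (B302) in the controls. B253 and B304 lay above all controls, and B305 lay just below control B267. The change was 0.36 (standard error 0.15, 95% interval 0.02 to 0.70), or 1.28-fold, and limma gave an unadjusted p = 0.0383 and an adjusted p = 0.9997. By exact permutation, two-sided, p was 0.2, and 3 mice against 3 can reach no less than 0.1.

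The unadjusted p of Mbl2 stayed under 0.05 without B305 or without control B267, and was above 0.05 when any other mouse was left out. The change was 0.49 within the two-hundreds and 0.42 within the three-hundreds, and it lay between 0.25 and 0.46 when any 1 mouse was left out. The other lectin of the family, Mbl1, had a change of 0.10 (95% interval -0.47 to 0.68). Its signals were 8.26 (B253), 7.27 (B304) and 7.64 (B305) against 7.27 (B256), 7.78 (B267) and 7.81 (B302), so that B253 was the highest and B304 the lowest of the 6, both of 1 genotype.

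C4bp (probe set 10357516) had signals of 11.14 (B253), 10.88 (B304) and 10.44 (B305) against 10.23 (B256), 10.98 (B267) and 10.10 (B302). Control B267 lay above B304 and B305, and the other two controls lay below all Lkb1KOlivad mice. The change was 0.38 (standard error 0.26, 95% interval -0.20 to 0.96), the largest of the members, and it was 0.66 without control B267 and 0.21 without control B302.

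The proteases carried by the lectins lay on opposite sides of 0. Masp1 had a change of -0.12 (95% interval -0.45 to 0.22) and Masp2, which cleaves C4 and C2, of 0.10 (-0.17 to 0.37). C2 itself, which becomes part of the C3 convertase, had -0.14 (-0.45 to 0.16). Its neighbour in the genome is Cfb, its counterpart in the alternative pathway, with 0.09 (-0.27 to 0.46).

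Besides Cfb, the alternative pathway and its control are represented by Cfi and Cfp. Cfi, the protease that cuts C3b and C4b, had signals of 11.36 (B253), 11.13 (B304) and 10.71 (B305) against 10.83 (B256), 11.14 (B267) and 10.87 (B302). Both the highest and the lowest of the 6 were Lkb1KOlivad mice. The change was 0.12 (95% interval -0.29 to 0.52), and -0.03 without B253. Cfp, which stabilises the alternative convertase, had a change of -0.10 (-0.42 to 0.23). Of the 11 Kupffer cell markers, 9 were below 0 (median -0.18), with a mean signal of the list of 7.0 to 7.35 in the Lkb1KOlivad livers and 6.94 to 7.56 in the controls. The direction was not the same in both mouse series. The median of these markers was -0.18 within the two-hundreds and 0.21 within the three-hundreds, whose only control, B302, had the lowest mean. The part of Kupffer cells in the Cfp value was not tested.

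Of the terminal pathway 6 of 6 genes were measured and 5 had a change above 0, with a median of 0.12. Without B253, 3 of the 6 were above 0. C8a, a chain of C8, had signals of 10.08 (B253), 9.52 (B304) and 8.97 (B305) against 9.0 (B256), 9.51 (B267) and 9.09 (B302). The 3 Lkb1KOlivad mice spanned the controls, and B253 stood above all others. The change was 0.32 (95% interval -0.27 to 0.92). It was 0.82 within the two-hundreds, where B253 is the only Lkb1KOlivad mouse, and 0.16 within the three-hundreds. Without B253 it was 0.048, and without B305 it was 0.60, with the groups apart and an unadjusted p under 0.05.

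The other chains of C8 had smaller changes, 0.16 (95% interval -0.19 to 0.52) for C8b, which neighbours C8a in the genome, and 0.04 (-0.30 to 0.39) for C8g. C9, which forms the pore, had the largest spread within groups of the members (SD 0.51), with 10.05 (B253), 9.58 (B304) and 8.78 (B305) against 9.71 (B256), 9.07 (B267) and 9.41 (B302). Its change was 0.07 (-0.61 to 0.76), and B253 and B305, of the same genotype, were the extremes.

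Hc, the gene of C5, had a change of 0.19 (95% interval -0.20 to 0.57). It was 0.077 without B253, 0.094 without control B302 and 0.35 without B305. FVB/N mice are known to carry an allele of Hc that gives no circulating C5, so this is a value of RNA only. C6 had the most negative change of the members. Its signals were 6.08 (B253), 5.71 (B304) and 5.88 (B305) against 6.19 (B256), 6.22 (B267) and 5.94 (B302). B304 and B305 lay below all controls, and B253 lay above control B302. The change was -0.23 (95% interval -0.54 to 0.09), and it was -0.32 without B253, when the groups lay apart.

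**Figure D4:**
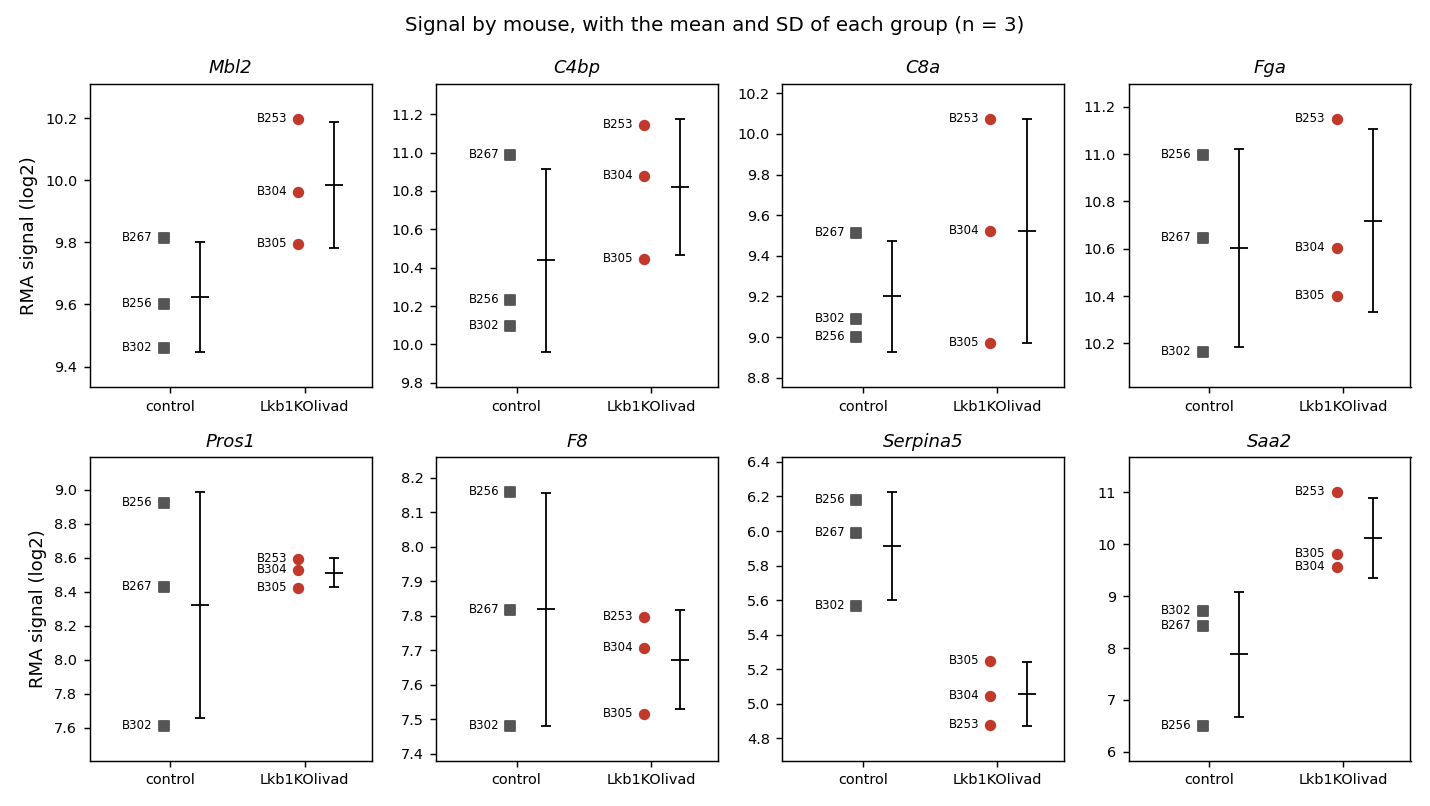
Log2 RMA signal by mouse in 8 genes (grey squares, control; red circles, Lkb1KOlivad; horizontal marks and bars, mean and SD of each group, n = 3), each on its own axis, which does not start at 0. The groups overlap in the 6 members, narrowly for Mbl2, and lie apart in Serpina5 and Saa2, which are not members and did not pass the adjusted test.

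The other genes of both pathways were read in the same way. Of 23 measured further coagulation genes, 0 passed the adjusted test. At an unadjusted p under 0.05, 0 were higher (1.52% of all genes) and 1 was lower (1.51% of all genes). This was Serpina5, the protein C inhibitor. It had signals of 4.88 (B253), 5.05 (B304) and 5.25 (B305) against 6.18 (B256), 5.99 (B267) and 5.57 (B302). The groups lay apart at low signals, and the change was -0.85 (95% interval -1.25 to -0.45, unadjusted p = 0.00101, adjusted p = 0.9997 from limma). The protease that it inhibits, encoded by Proc, is the member described above with a change of 0.02. The next by p were Procr (the protein C receptor), with 0.19, Serpina10 (the inhibitor that works with protein Z), with 0.51, and Serpinf2 (the plasmin inhibitor), with 0.26. The median of this list was 0.05.

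Of 20 measured further complement genes, 0 passed the adjusted test and 15 had a change below 0, with a median of -0.11. The median was -0.14 within the two-hundreds and 0.02 within the three-hundreds. Of the 20, C1qa, C1qb, C1qc and Vsig4 are also in the Kupffer cell list and Colec11 in the stellate cell list. Both of these lists had mostly changes below 0, but the Kupffer cell median was 0.21 within the three-hundreds. Of the 15 in no marker list, 11 were below 0 (median -0.07). The marker lists are short, and absence from them does not place a gene outside Kupffer or stellate cells. The part of these cells in the values was not tested. No gene of this list was raised at an unadjusted p under 0.05, where 1.52% of all genes were. The only one lowered at that threshold was C3ar1, the receptor of the C3a fragment (1.51% of all genes). Its signals were 6.21 (B253), 6.195 (B304) and 6.19 (B305) against 6.40 (B256), 6.97 (B267) and 6.42 (B302). The groups lay apart, with a change of -0.40 (95% interval -0.77 to -0.03). Colec10, a collectin, also lay apart, with -0.25 (-0.54 to 0.04). Thus 2 of the 20 lay apart below and 0 above, set against 3.7% and 3.46% of all genes. Cd46 and C5ar1 (the receptor of C5a) had -0.19 and -0.20.

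Regulators were read from 16 measured genes of transcription factors and of the interleukin-6 pathway, and 0 passed the adjusted test. Whether they drive the members here was not tested, and this list too was chosen with earlier results known. At an unadjusted p under 0.05 from limma, 1 was higher (1.52% of all genes) and 1 lower (1.51% of all genes). Groups lay apart above in 1 (3.46% of all genes) and below in 2 (3.7% of all genes). Onecut1, a member of the family whose motif was searched above, had signals of 7.02 (B253), 7.44 (B304) and 8.43 (B305) against 9.01 (B256), 9.02 (B267) and 9.73 (B302), and the groups lay apart. The change was -1.62 (95% interval -2.40 to -0.84, adjusted p = 0.9997 from limma). The 6 members with a match to the Onecut motif (C8a, Cfp, F13b, F2, F9 and Fgb) had changes from -0.10 to 0.32, and each of their intervals included 0. So did the interval of every other measured member except Mbl2, with or without a match. The part of Onecut1 in the members' values was not tested. Esr1, the estrogen receptor alpha, had the smallest p of the list and groups that lay apart. Its change was 0.96 (95% interval 0.68 to 1.25, adjusted p = 0.332 from limma). Foxa2 had -0.24, with the groups apart, and Cebpa -0.31, with groups that overlapped. Hnf4a, which binds many clotting gene promoters, had 0.02 (-0.40 to 0.45).

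Genes of the acute phase response, which several members follow in inflammation, were read beside them. Of 16 genes, 14 had a change above 0 (51.6% of all genes) and 0 passed the adjusted test. At an unadjusted p under 0.05, 3 were higher (1.52% of all genes). The list was chosen with earlier results of these data known, so these counts describe it and do not test it. Fgl1 is in this list and also in that of the further coagulation genes. Saa2, a serum amyloid A, had signals of 10.997 (B253), 9.56 (B304) and 9.81 (B305) against 6.502 (B256), 8.42 (B267) and 8.71 (B302), and the groups lay apart. Its change was 2.24 (95% interval 0.95 to 3.54, adjusted p = 0.9997 from limma). Saa1 had 1.36, and as Saa1 and Saa2 are near-identical in sequence their probe sets may share signal. Saa3 had 0.67 and Apcs 0.30. The mean of this list relative to the controls was 0.76 in B253, 0.24 in B304 and 0.11 in B305, against -0.17 in B256, 0.18 in B267 and -0.01 in B302, so the mouse with the highest acute phase mean was also the one with the most member genes at their highest. Its part in the members' values was not tested.

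Markers of other cells of liver were set beside these values. All 9 stellate cell markers had a change below 0 (median -0.21, from 6.37 to 6.67 in mean signal against 6.56 to 6.88), with Lrat at -0.43 (95% interval -0.75 to -0.12). The neutrophil markers had 7 of 8 above 0 (median 0.12), and the platelet markers 3 of 4 (median 0.06). Of the 11 measured hepatocyte markers 9 were above 0, with a median of 0.02. None of these markers passed the adjusted test. Their part in the members' values was not tested.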

How the data were processed

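RNA of 6 livers was hybridized to Affymetrix mouse gene arrays, 1 per mouse. The deposited values are log2 RMA signals made by the authors (background correction, normalization between arrays and summary of probes). The labels name RMA and Partek with NuGEN kits, the methods name Expression Console, BRB-ArrayTools and an Affymetrix labelling kit, and their versions were not given in the sources used here. Values were used as deposited, without an intensity filter. Groups and mouse numbers are those of the labels.

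The annotation is for an earlier generation of array than the methods name. Of 35556 probe sets, 21789 with a single symbol were used, 1621 carried several and 12146 none. By gene identifier, 21698 symbols were updated or checked. For 999 genes with several probe sets the brightest was kept, which gave 19938 genes. Groups were compared without covariates by limma 3.58.1 (lmFit, then eBayes; two-sided) under R 4.3.3, and p-values were adjusted over all genes (Benjamini-Hochberg, threshold 0.05). The script was tested on simulated data. Plots used matplotlib 3.10.9 (Python 3.11.15). Members and lists were chosen with earlier results of these data known. Values of every mouse are given for members at an unadjusted p under 0.05, for the member with the largest change in each role and for members set beside them, and other lists by counts and up to 4 genes of smallest p. The alternatives were quantile normalization, median centring, leaving out dim genes, averaging probe sets, a robust fit with an intensity trend, weighting the arrays, the t-test of the methods (the methods' t-test), blocking on the mouse number series, and leaving out each mouse. Only 3 arrays per group limit the precision. A limma p-value sets the difference between the groups against the spread between mice of a group, moderated over all genes.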

Additional observations from a re-analysis of the deposited data

How the results depend on the processing

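No member passed the adjusted test under any of the 14 alternatives (0 in each), and the smallest adjusted p of a member over all of them was 0.898, for Mbl2 with the mouse series as a block. The cause of the changes below was not tested. Members at an unadjusted p under 0.05 numbered 1, and 0 in the methods' t-test, 0 with dim genes left out and 0 with weighted arrays. With the series as a block they numbered 3 (Fga, Mbl2 and C4bp, all higher). Of all genes, 2.95% were higher with the block, against 1.52% in the main fit. Leaving out 1 mouse gave 0 to 2. It was 2, both higher, without control B267 and without B305, where 2.02% and 1.69% of all genes were higher. Members whose groups do not overlap numbered 0, and 3 after quantile normalization (F2 lower, Fgg and Mbl2 higher). With 1 mouse left out they numbered 0 to 5. Without control B302, 5 lay below and 0 above, and without B253, 4 below and 0 above. Of all genes, 8.55% and 8.41% lay below and 9.51% and 9.17% above. Without B305, control B267 and control B256, 5, 4 and 1 lay above and 0 below. Of all genes, 7.95%, 7.77% and 9.38% lay above and 7.3%, 8.7% and 9.07% below. Without B304 the count was 0 in both directions, where 5.71% of all genes lay above and 8.55% below. The median change of the members stayed within 0.02 to 0.12 in the other settings and within -0.047 (without B253) to 0.12 (without B305) with 1 mouse left out. The number of all genes called was 0 in the methods' t-test and 0 to 1 with 1 mouse left out. The change of Stk11 was -1.64 in the methods' t-test, with adjusted p = 0.566, and -1.71 to -1.57 with 1 mouse left out, where it passed only without B302 and had adjusted p = 0.0501 to 0.139 from limma without any other mouse. No paired analysis was possible because the labels give no replicate numbers that the groups share.

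Under the alternatives that keep all mice, 15 values of member genes turned sign, in 8 genes whose change was 0.12 or less in size. Median centring gave 0.0014 for F2, 0.00029 for F5 and 0.0094 for F12, and the block gave 0.038 for F2, 0.062 for F5 and 0.047 for F12. Quantile normalization gave -0.026 for Proc, -0.048 for F11, -0.027 for F13b and -0.029 for Plg, and array weights gave -0.022 for Proc, -0.15 for F11, -0.0017 for Fga, -0.059 for F13b and -0.0070 for Plg. Of 192 values with 1 mouse left out, 35 turned sign, in 22 genes, with ranges of -0.064 to 0.033 for F2, -0.050 to 0.14 for F9, -0.0019 to 0.14 for F10, -0.12 to 0.10 for Proc, -0.16 to 0.49 for Pros1, -0.055 to 0.28 for Proz, -0.12 to 0.079 for F5, -0.31 to 0.023 for F8, -0.29 to 0.25 for F11, -0.12 to 0.11 for F12, -0.092 to 0.022 for Kng1, -0.10 to 0.31 for Fga, -0.016 to 0.17 for Fgb, -0.21 to 0.15 for F13b, -0.065 to 0.063 for Plg, -0.17 to 0.33 for Mbl1, -0.24 to 0.019 for Masp1, -0.038 to 0.19 for Cfb, -0.026 to 0.30 for Cfi, -0.00057 to 0.25 for C8b, -0.11 to 0.14 for C8g and -0.22 to 0.42 for C9. The other 10 members had the same sign in every alternative, with ranges of 0.023 to 0.15 for F7, 0.027 to 0.15 for Fgg, 0.25 to 0.46 for Mbl2, 0.044 to 0.17 for Masp2, -0.25 to -0.069 for C2, 0.21 to 0.66 for C4bp, -0.21 to -0.0019 for Cfp, 0.077 to 0.35 for Hc, -0.32 to -0.14 for C6 and 0.048 to 0.60 for C8a with 1 mouse left out.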
